A study of Mus musculus with 18 samples.

Results

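The genes of 10 mouse serotonin receptors were followed across the hippocampus of mice after rotation: Htr1a, Htr1b, Htr2a, Htr2c, Htr3a, Htr4, Htr5a, Htr5b, Htr6 and Htr7. They were taken from the count table by their Ensembl identifiers, and all 10 were found among its 22063 genes. The series concerns spatial disorientation of vestibular origin, produced in mice by coupled rotation about several axes, with the hippocampus collected immediately afterwards. In S-V samples (n = 5) the rotation ran in 1 direction and sight was blocked. In D+V samples (n = 5) it ran in 2 directions and the animals could see, whereas D-V samples (n = 5) came from rotation in 2 directions with sight blocked, the condition named the Coriolis illusion. Control samples (n = 3) are labelled as blank controls. No strain, sex, age, speed or duration of rotation is stated in the labels used here, nor whether the controls were placed in the apparatus, blindfolded or handled.

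Serotonin reaches the hippocampus through axons of raphe neurons in the brainstem, so its receptors are made by hippocampal cells while the transmitter is made elsewhere. The receptors encoded by Htr1a, Htr1b, Htr5a and Htr5b couple mainly to inhibitory Gi/o proteins, those encoded by Htr2a and Htr2c to Gq and phospholipase C, and those encoded by Htr4, Htr6 and Htr7 to Gs and cyclic AMP. Htr3a encodes the subunit that forms the serotonin-gated cation channel, which in cortex and hippocampus is found mainly in a class of inhibitory interneurons. Htr2c is known both from neurons and, at a very high level, from the choroid plexus, the epithelium of the brain ventricles that makes cerebrospinal fluid and lies against the hippocampus.

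The promoters of Htr2c and Htr7 are shown because these genes were moderately correlated among the libraries (Pearson r 0.51), as described further on. Htr3a with Htr7 had a higher r (0.57), but no window was matched for Htr3a. Both promoters shown are RefSeq windows of 300 bases in GRCm38.p6, written along the gene's own strand. They reach from 250 bases before to 50 bases after the annotated start. Htr2c lies at chrX:146962263-146962562 on the plus strand and Htr7 at chr19:36057311-36057610 on the minus strand. Capitals mark the only match to the motifs searched.
Htr2c: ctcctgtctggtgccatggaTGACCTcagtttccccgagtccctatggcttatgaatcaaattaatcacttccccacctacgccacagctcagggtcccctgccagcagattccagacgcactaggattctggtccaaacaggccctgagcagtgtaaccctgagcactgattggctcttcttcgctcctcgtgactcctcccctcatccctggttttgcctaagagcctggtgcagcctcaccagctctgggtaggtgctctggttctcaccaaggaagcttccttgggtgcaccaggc
Htr7: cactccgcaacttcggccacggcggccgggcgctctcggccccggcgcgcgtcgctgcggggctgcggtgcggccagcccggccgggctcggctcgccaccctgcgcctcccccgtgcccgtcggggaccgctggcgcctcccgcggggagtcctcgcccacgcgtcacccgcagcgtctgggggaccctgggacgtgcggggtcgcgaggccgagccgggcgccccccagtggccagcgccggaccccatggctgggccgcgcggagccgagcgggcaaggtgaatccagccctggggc

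The motifs were AGGTCA, a half-site of nuclear receptors such as NR2F2, TAATCC, the core site of OTX factors, and TATAAA, the TATA box, each on both strands. The capitals in Htr2c begin at base 21 and are AGGTCA read on the minus strand. The windows matched for 7 of the 10 receptors came to 8, since Htr6 had 2. AGGTCA was present in the Htr2c window and in both Htr6 windows, against 16.3% of all 32851 RefSeq windows. TAATCC and TATAAA, held by 7.06% and 13.6% of all windows, were in 0 of the 8. The Htr7 window was 81.0% G+C with 46 CpG sites and the Htr2c window 56.3% with 5, against a median of 52.7% and 7 CpG sites over all windows. The matches describe letters only.

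The 18 libraries held between 15.03 and 25.31 M estimated counts each, and all 10 receptors passed the filter on low counts. No pair of libraries within a group was alike enough to be a duplicate: the pair closest in counts differed by a chi-square of 5.65 per gene, where 1 is sampling noise. As the samples are bulk tissue, a lower level may mean fewer cells or less RNA per cell. The 5 libraries S-V 2, S-V 4, D+V 2, D-V 3 and D-V 4 stood apart by choroid plexus markers, with a summed level of 20 markers from 5566 to 14656 CPM. In the other 13 the sum lay between 365 and 1951 CPM. None of the 3 Control libraries was among the 5 rich ones. Markers of the hippocampal fields were present throughout: Prox1 of dentate granule cells ran from 79.1 to 153 CPM, Wfs1 of CA1 from 89.2 to 199 CPM and Bok of CA3 from 62.3 to 99.8 CPM. Drd1, a striatal receptor, ran from 2.27 to 5.37 CPM.

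Per kilobase of transcript, Htr2c and Htr1a led. On this scale Htr2c averaged 10.6 ± 4.81 CPM per kb and Htr1a 8.16 ± 1.11 (SD, n = 18). Htr3a, the channel subunit, followed with 6.24 ± 1.20 and Htr5b with 3.11 ± 0.54 CPM per kb. Htr7 (2.67), Htr4 (2.34), Htr2a (2.30), Htr5a (2.16), Htr6 (1.85) and Htr1b (1.81) lay close together. Htr1a exceeded Htr2c in 8 of 18 libraries and Htr3a exceeded Htr1a in 3, so the first 3 places were not held in each library. The gap between Htr3a and Htr5b was reversed in 1 library. From Htr5b down to Htr5a neighbours changed places in 6, 5, 7 and 8 libraries, which is not a separation beyond their spread. Htr6 exceeded Htr5a in 3 libraries and Htr1b exceeded Htr6 in 12. The order depends on the length chosen: per kilobase of coding sequence Htr2c and Htr1a kept the first 2 places, Htr5a was the third and Htr3a the sixth.

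**Figure D1:**
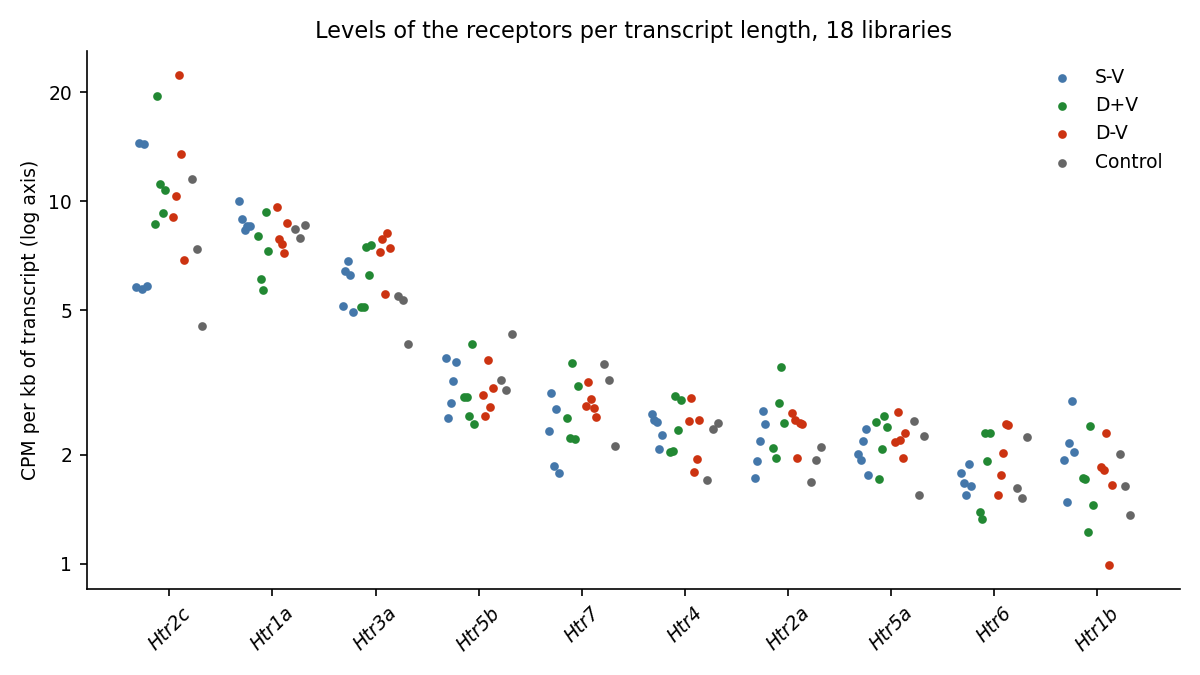
Levels of the 10 receptors in CPM per kb of the longest protein-coding transcript (log axis), 1 point per library, coloured by group (S-V, D+V and D-V n = 5 each, Control n = 3). Htr2c and Htr1a lie highest, at means of 10.6 and 8.16 CPM per kb, and Htr2c is the most scattered.

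The receptors differed in how steady they were. Htr1a, the main inhibitory receptor of pyramidal cells, ran from 25.5 to 44.8 CPM over the 18 libraries, a coefficient of variation of 13.6%, and Htr5a, Htr4 and Htr5b varied by 13.8%, 15.1% and 17.5%. Htr2c ran from 22.1 to 108.7 CPM, or 45.3%, although counting error alone would give 3.19% at its mean of 982 counts. Htr6, the lowest, had a mean of 82.2 counts and varied by 19.2%, against a counting error of 11.0%. Of the mouse serotonin receptor genes outside the 10, Htr1f averaged 0.84, Htr1d 0.31, Htr2b 0.079 and Htr3b 0.015 CPM, and only Htr1f passed the filter.

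None of the 10 receptors passed the test in any comparison with Control, by the quasi-likelihood test of edgeR with Benjamini-Hochberg adjustment over 14763 genes. In S-V against Control 0 of 10 passed, against 0% of all genes, and 0 of 10 had an unadjusted p under 0.05, against 7.41% of all genes higher and 5.95% lower at that p. In D+V against Control 0 of 10 passed, against 0.942% of all genes, and 2 of 10 (Htr2a and Htr3a) were higher at an unadjusted p under 0.05, against 10.8% of all genes higher and 6.86% lower. In D-V against Control 0 of 10 passed, against 0% of all genes, and 1 of 10 was higher at an unadjusted p under 0.05, against 3.37% of all genes higher and 2.65% lower. With the 3 rotated groups pooled against Control 0 of 10 passed, against 0%, and 2 of 10 were higher at an unadjusted p under 0.05, against 7.44% of all genes higher and 5.44% lower. Limma voom also called 0 receptors in these 4 comparisons, as did DESeq2 where it gave an adjusted p. In S-V against Control DESeq2 gave one only to Htr1a and Htr2c. With the rotated groups pooled it gave one only to Htr1a, Htr2a, Htr2c and Htr3a. A receptor without an adjusted p could not be called. The receptors' median log2 fold change over Control was 0.12 for S-V, 0.06 for D+V and 0.10 for D-V, against 0.00 or −0.00 over all tested genes. Positive values were held by 6, 7 and 7 of the 10 receptors, and by 50.6%, 49.5% and 51.4% of all tested genes. The 3 comparisons share their Control libraries, so a high or low Control value enters all of them.

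**Figure D2:**
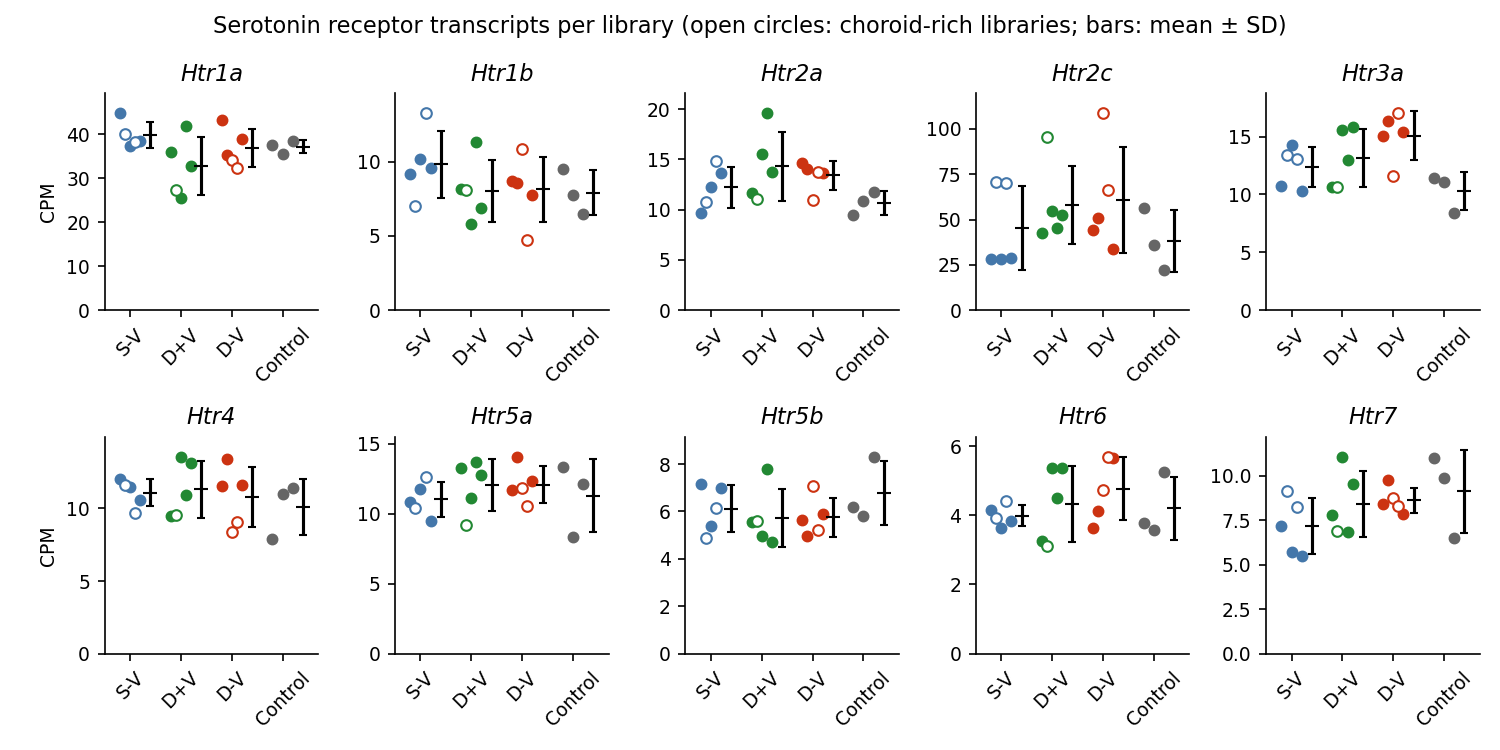
CPM of each receptor in each library, by group from left to right (S-V, D+V, D-V, Control), with mean ± SD beside the points; open circles are the 5 choroid-rich libraries. The open circles are the highest points for Htr2c (66.1 to 108.7 CPM), and for Htr3a all 5 D-V points lie above the 3 Control points.

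Htr3a, the channel subunit, was the receptor with the smallest p in D-V against Control. It was at 15.1, 16.4, 11.5, 17.0 and 15.4 CPM in D-V libraries 1 to 5, against 11.4, 11.1 and 8.41 CPM in Control libraries 1 to 3. Each D-V library was above each Control library, which held for 2.75% of all tested genes, and D-V 3 cleared the highest Control narrowly. The log2 fold change was 0.55 (SE 0.16, 95% interval 0.21 to 0.89), with an unadjusted p of 0.00291 and an adjusted p of 0.710 (edgeR). Htr3a was the 1 receptor of 10 higher at an unadjusted p under 0.05, as were 3.37% of all genes. In D+V libraries 1 to 5 Htr3a was at 10.7, 10.6, 15.5, 13.0 and 15.8 CPM, a log2 fold change of 0.34 over Control (SE 0.16, adjusted p 0.273). S-V libraries had 10.7, 13.4, 14.3, 13.0 and 10.3 CPM, a log2 fold change of 0.26 (SE 0.16, adjusted p 0.506). In D+V and in S-V, 3 of 5 libraries were above all controls and the rest lay within the Control range.

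Markers of inhibitory interneurons were examined beside Htr3a. The 15 markers, all tested, summed to between 1532 and 1705 CPM in D-V and between 1456 and 1537 CPM in Control, 10 of 15 had a positive log2 fold change, 1 was higher at an unadjusted p under 0.05 and 0 passed the test. The 1 was Cnr1, the cannabinoid receptor found on cholecystokinin interneurons, named here after its values were seen. It ran from 165 to 226 CPM in D-V, against 150 to 163 CPM in Control, a log2 fold change of 0.35 (SE 0.11, adjusted p 0.710, edgeR). The D-V level of Cnr1 was not particular to that group, as it ran from 156 to 230 CPM in D+V and 162 to 194 CPM in S-V. Vip and Adarb2, which mark the interneuron classes that carry Htr3a, averaged 12.7 ± 1.75 and 20.1 ± 2.17 CPM in D-V (SD, n = 5), against 11.0 ± 0.62 and 22.8 ± 5.93 CPM in Control (SD, n = 3). Gad1, an enzyme of GABA synthesis, averaged 370 ± 12.5 CPM in D-V and 349 ± 34.5 CPM in Control. Markers of thalamus ran the other way: 15 of 15 had a negative log2 fold change, their sum was 96.1 to 192 CPM in D-V and 161 to 272 CPM in Control, 10 of 15 were lower at an unadjusted p under 0.05, against 2.65% of all genes, and 0 passed the test. The negative direction was not particular to D-V: it held for 14 of 15 in S-V and for 14 of 15 in D+V against Control. Gbx2 and Irx2 of this list and Pou4f1 of the habenula list were at 0 in at least 1 D-V library. Gbx2 was also at 0 in D+V 4, and Pou4f1 in S-V 4, S-V 5, D+V 3 and D+V 4. Tcf7l2, a transcription factor of thalamic neurons, averaged 4.16 ± 1.10 CPM in D-V and 9.27 ± 2.99 CPM in Control, and Prkcd, a kinase of the same neurons, 31.9 ± 12.2 and 56.6 ± 19.5 CPM. The 10 habenula markers summed to 43.4 to 52.7 CPM in D-V and 41.9 to 75.4 CPM in Control. Of the 9 tested, 7 had a negative log2 fold change and 2 a positive one. At an unadjusted p under 0.05, 5 of 9 were lower, against 2.65% of all genes, and 0 passed the test. In S-V and in D+V against Control the value was negative for 8 of 9. Gpr151 averaged 0.76 CPM in D-V and 1.48 CPM in Control. Pou4f1, which was too low to be tested, averaged 0.12 and 0.40 CPM, with Control libraries at 0.13, 0.045 and 1.02 CPM. With the thalamus and habenula score as a covariate the D-V against Control value of Htr3a was 0.30 (adjusted p 0.992). That score was 0.35 to 0.59 in Control and at most 0.25 in the rotated libraries. As the ranges do not overlap, the score cannot be told apart from rotation. Without the choroid-rich libraries the Htr3a value was 0.60 (adjusted p 0.550). Over all alternatives the adjusted p ran from 0.224 to 0.992. The part of neighbouring tissue in the Htr3a values was not tested.

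**Figure D3:**
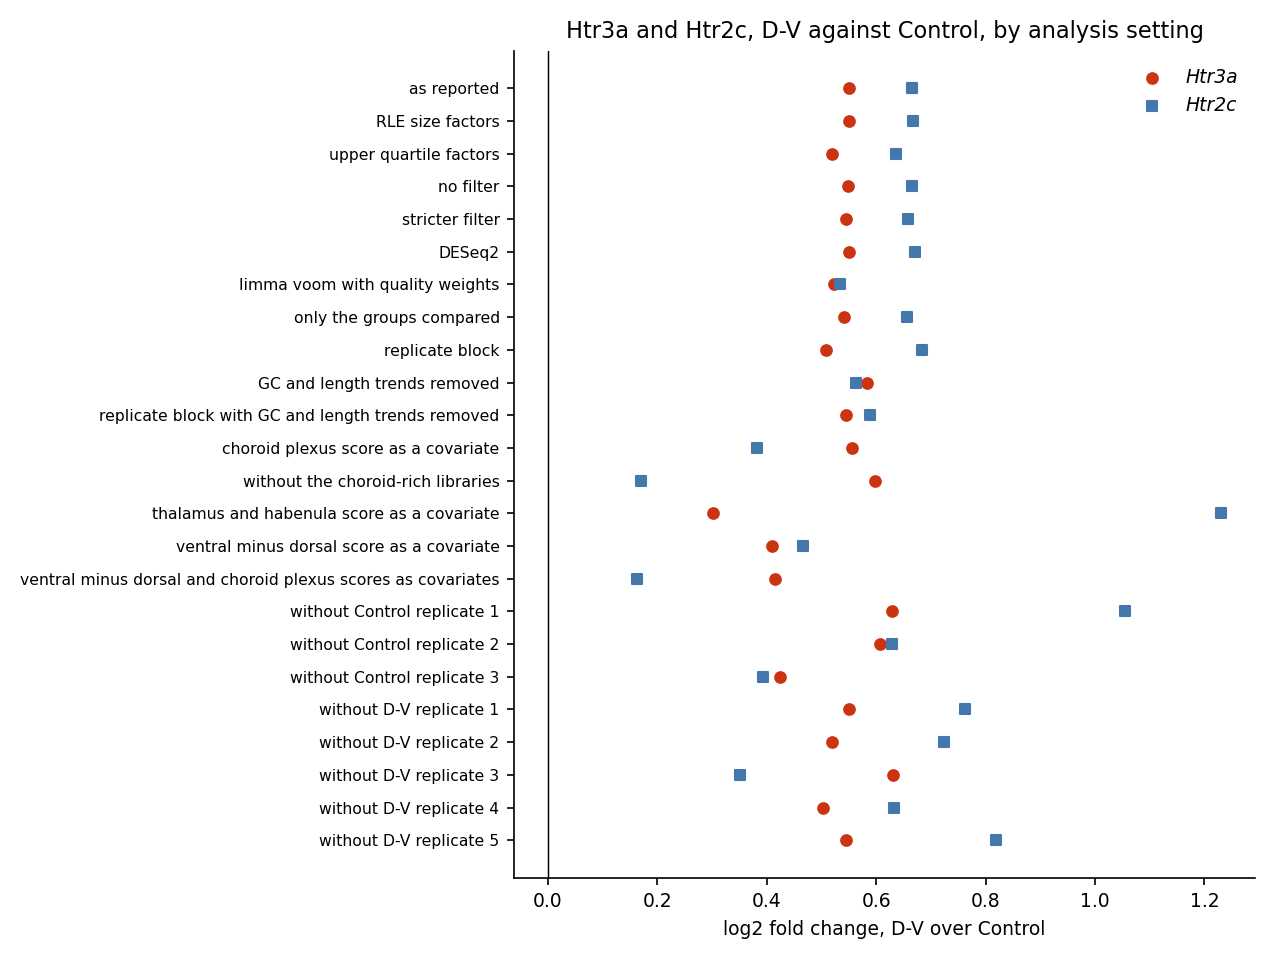
Log2 fold change of Htr3a (circles) and Htr2c (squares) in D-V over Control under each analysis setting, with the fit of the report at the top. Htr3a lies between 0.30 and 0.63 and Htr2c between 0.16 and 1.23; none of the points passed the test.

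Htr2a, the excitatory Gq-coupled receptor and the main target of psychedelic drugs, was at 11.7, 11.0, 15.5, 19.6 and 13.7 CPM in D+V libraries 1 to 5, against 9.42, 10.8 and 11.8 CPM in Control. Of the D+V libraries 3 were above all controls and the other two within their range. The log2 fold change was 0.42 (SE 0.17, 95% interval 0.07 to 0.78, unadjusted p 0.0207, adjusted p 0.195, edgeR). D-V libraries had 14.6, 14.0, 11.0, 13.7 and 13.6 CPM, with 4 of 5 above all controls and a log2 fold change of 0.33 (SE 0.17, adjusted p 0.834). S-V libraries had 9.69, 10.8, 12.2, 14.8 and 13.6 CPM, a log2 fold change of 0.19 (SE 0.17, adjusted p 0.651). With the thalamus and habenula score as a covariate the values were 0.00 in D+V, −0.26 in D-V and −0.11 in S-V, none of them called. As given above, that score did not overlap between Control and the rotated libraries, so these values cannot separate it from rotation.

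Htr2c, the other Gq-coupled receptor and the only one known for extensive RNA editing, had the widest spread within each group. S-V libraries 1 to 5 had 28.3, 70.7, 28.0, 70.2 and 28.5 CPM. D+V libraries had 42.3, 95.5, 54.6, 45.4 and 52.5 CPM and D-V libraries 44.1, 50.7, 108.7, 66.1 and 33.7 CPM, against 56.1, 36.2 and 22.1 CPM in Control. The groups overlapped, and the 3 Control libraries alone differed by 2.54-fold. Over Control the log2 fold change was 0.24 for S-V (SE 0.46, adjusted p 0.868), 0.61 for D+V (SE 0.47, adjusted p 0.530) and 0.67 for D-V (SE 0.47, adjusted p 0.875, edgeR). The 95% interval of the D-V value ran from −0.33 to 1.67, or 0.79-fold to 3.18-fold.

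**Figure D4:**
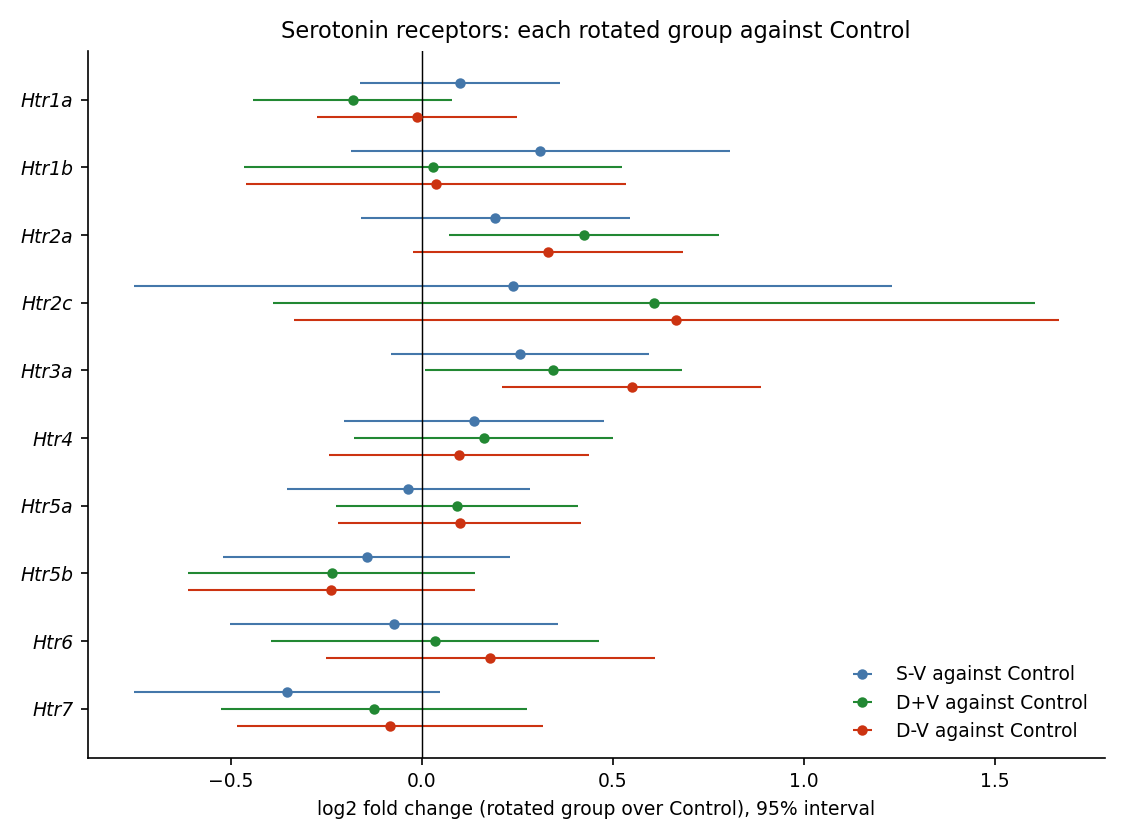
Log2 fold change of each receptor in S-V, D+V and D-V over Control, with 95% intervals from the edgeR fit. The intervals of Htr2c are the widest, and those of Htr3a in D-V (0.21 to 0.89) and D+V and of Htr2a in D+V lie above 0 before adjustment.

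The 5 choroid-rich libraries held the 5 highest Htr2c levels. There Htr2c was at 66.1 to 108.7 CPM, against 22.1 to 56.1 CPM in the other 13. Within S-V the split was clean, with 70.7 and 70.2 CPM in the rich libraries 2 and 4, against 28.0 to 28.5 CPM in libraries 1, 3 and 5. The highest level belonged to D-V 3, which also had the highest Ttr, the transthyretin carrier secreted by choroid plexus, at 9999.7 CPM, and D+V 2 was next in both, with 8347 CPM of Ttr. Kl (klotho) and Folr1 (folate receptor), further choroid genes, reached 325 and 77.9 CPM in D-V 3, against at most 65.4 and 11.1 CPM in the 13 other libraries. All 20 choroid markers had positive log2 fold changes in each rotated group over Control, and 0 of 20 passed the test. Their sums ran from 425 to 5990 CPM for S-V, 366 to 12875 CPM for D+V and 379 to 14656 CPM for D-V, against 365 to 1660 CPM in Control. The median sum was 1210 CPM in S-V, 406 CPM in D+V and 474 CPM in D-V, against 740 CPM in Control. In D+V and D-V the median library was thus below the Control median, despite the positive fold changes. With the choroid-rich libraries left out, the Htr2c value over Control was −0.43 for S-V, 0.35 for D+V and 0.17 for D-V, and 0.03 for the rotated groups together. None of these was called, and in S-V the sign differed from that with all libraries.

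Among the 13 remaining libraries Htr2c still varied 2.54-fold, and its order was close to that of a score of position along the hippocampus. The score is the mean log2 CPM of Dcn, Trhr, Nr2f2 and Grp, which are known to be stronger toward the ventral pole, minus that of Wfs1, Lct and Spink8, stronger toward the dorsal pole. These 7 genes were picked from a larger set after their values and their relation to Htr2c had been seen, so the match has no test. The rank of a library in Htr2c equalled its rank in the score in 10 of 13 libraries, and the greatest difference was 3 places, for Control 1. Control 3 was lowest in both, with 22.1 CPM of Htr2c at a score of −1.46, and D+V 3 had the highest score, 1.22, with 54.6 CPM. Dcn was at 69.0 CPM and Lct at 31.1 CPM in D+V 3, against 21.8 and 99.6 CPM in Control 3. Nr2f2 is also expressed in interneurons and Dcn in fibroblasts. In the marker lists used here Lct stands for dentate granule cells, and Wfs1 and Dcn for CA1. The part of these hippocampal fields in the score was not tested. The score averaged −0.34 ± 0.73 for S-V, 0.23 ± 0.73 for D+V and 0.36 ± 0.64 for D-V (SD, n = 5 each), against −0.41 ± 0.97 in Control (SD, n = 3), so the groups overlapped in it. With this and the choroid score as covariates the Htr2c log2 fold change over Control was −0.12 for S-V, 0.32 for D+V and 0.16 for D-V, none of them called. Because the score's genes were picked with their relation to Htr2c known, these values are no test of a part played by position.

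**Figure D5:**
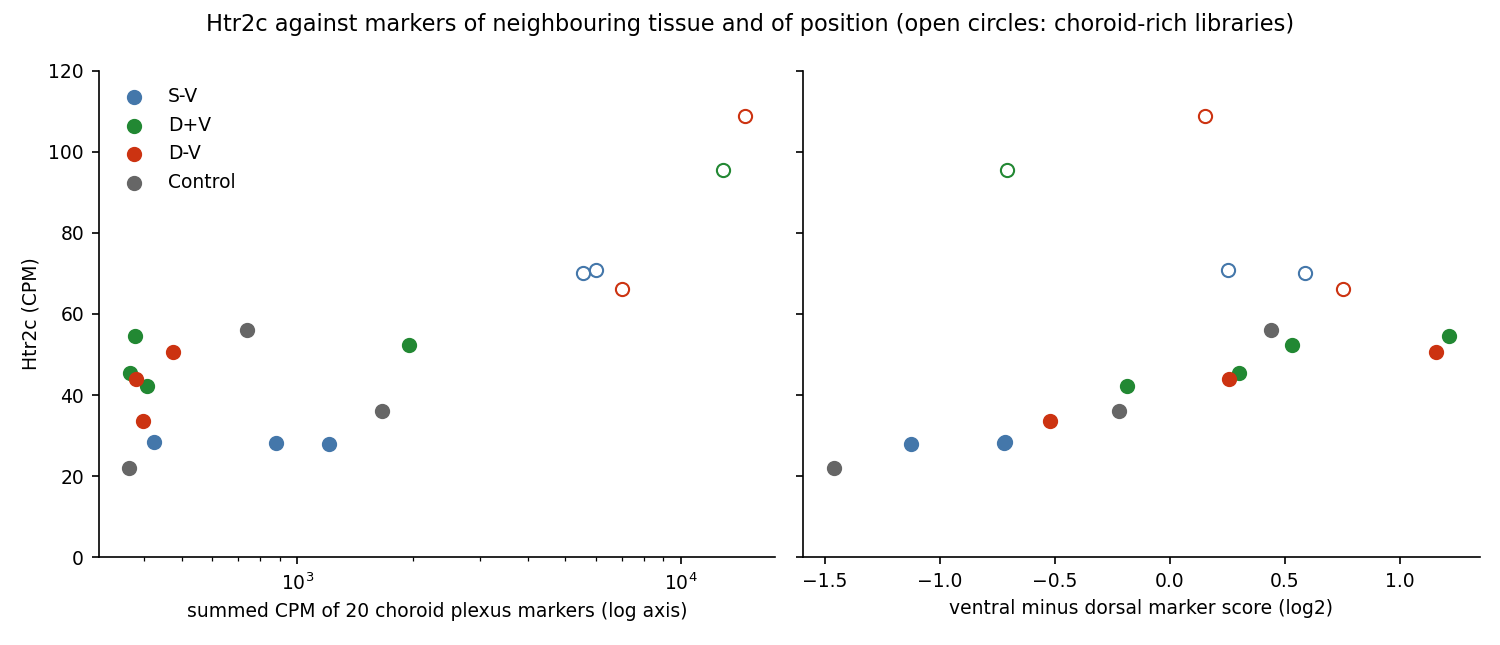
Htr2c in CPM against the summed CPM of 20 choroid plexus markers (left, log axis) and against the ventral minus dorsal score (right, log2 units), 1 point per library coloured by group; open circles are the 5 choroid-rich libraries. All open circles lie above 66 CPM at the left, and the filled points at the right ascend from Control 3 (22.1 CPM) to the libraries near 55 CPM.

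With the position score alone as a covariate the D-V over Control value of Htr3a was 0.41 (adjusted p 0.727), that of Htr7 −0.31 (adjusted p 0.808) and that of Htr5b −0.11 (adjusted p 0.957). Whether the pieces of tissue differed in position was not tested.

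Among the Gi/o-coupled receptors Htr1a had mean levels near Control but more scatter. Its coefficient of variation was 7.46% for S-V, 20.2% for D+V and 11.9% for D-V, against 4.15% in Control. It was at 36.0, 27.4, 25.5, 41.9 and 32.7 CPM in D+V, against 37.6, 35.5 and 38.5 CPM in Control, with 3 of 5 D+V libraries below and 1 above all controls and a log2 fold change of −0.18 (SE 0.13, adjusted p 0.472, edgeR). In D-V it was at 43.3, 35.4, 34.3, 32.2 and 39.0 CPM, with 2 libraries above and 3 below all controls. The log2 fold change was 0.10 in S-V and −0.01 in D-V, with 95% intervals of −0.16 to 0.36 and −0.27 to 0.25, the upper bounds being 1.28-fold and 1.19-fold. Htr1b, the receptor on axon terminals that limits transmitter release, averaged 9.83 ± 2.27 CPM for S-V, 8.04 ± 2.09 for D+V and 8.13 ± 2.22 for D-V (SD, n = 5 each), against 7.91 ± 1.53 CPM in Control (SD, n = 3). Its lowest and highest libraries, D-V 4 at 4.71 CPM and S-V 4 at 13.3 CPM, were both choroid-rich. Htr5a ran from 9.47 to 12.6 CPM for S-V, 9.20 to 13.7 CPM for D+V and 10.5 to 14.1 CPM for D-V, against 8.35 to 13.3 CPM in Control, with log2 fold changes of −0.04, 0.09 and 0.10. Htr5b, which encodes a receptor in rodents but is a pseudogene in humans, averaged 6.12 ± 0.99, 5.72 ± 1.23 and 5.76 ± 0.82 CPM in the same 3 groups, against 6.78 ± 1.34 CPM in Control. Its log2 fold changes were −0.14, −0.24 and −0.24, with adjusted p of 0.771, 0.520 and 0.884 (edgeR), and 9 of 15 rotated libraries were below all controls.

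Of the Gs-coupled receptors none stood out. Htr4 averaged 11.1 ± 0.94 CPM for S-V, 11.3 ± 1.96 for D+V and 10.8 ± 2.05 for D-V (SD, n = 5 each), against 10.1 ± 1.90 CPM in Control (SD, n = 3). Htr6, found mainly on neuronal primary cilia, averaged 3.99 ± 0.30, 4.32 ± 1.10 and 4.77 ± 0.91 CPM in these groups, against 4.20 ± 0.91 CPM in Control. Htr7 was at 7.18, 9.14, 5.73, 8.24 and 5.47 CPM in S-V, against 11.0, 9.89 and 6.51 CPM in Control. Of the S-V libraries 2 were below all controls, and the log2 fold change was −0.35 (SE 0.19, 95% interval −0.75 to 0.05, adjusted p 0.437, edgeR). Htr7 averaged 8.41 ± 1.84 CPM in D+V and 8.61 ± 0.72 CPM in D-V, with log2 fold changes of −0.13 and −0.08 over the Control mean of 9.12 ± 2.32 CPM.

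Between the rotated groups the comparisons ask what direction and sight add. In D-V against S-V, which differ in direction with sight blocked in both, 0 of 10 receptors passed, against 0% of all genes, and 1 of 10 was higher at an unadjusted p under 0.05, against 3.37% of all genes higher and 2.93% lower. That was Htr3a, with means of 15.1 ± 2.12 CPM in D-V and 12.3 ± 1.73 CPM in S-V (SD, n = 5 each), a log2 fold change of 0.29 (SE 0.14) and an adjusted p of 0.792 (edgeR). In D-V against D+V, which differ in sight, 0 of 10 passed, against 0%, and 0 of 10 had such a p, against 5.03% of all genes higher and 8.54% lower. DESeq2 and limma voom also called 0 receptors in both comparisons. In D-V against D+V the log2 fold changes ran from −0.09 for Htr2a to 0.21 for Htr3a. In D+V against S-V, which differ in both, 0 of 10 passed, against 0%, and 1 of 10 was lower at an unadjusted p under 0.05, against 8.13% of all genes higher and 4.69% lower.

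That one was Htr1a, at 36.0, 27.4, 25.5, 41.9 and 32.7 CPM in D+V, against 44.8, 40.1, 37.4, 38.4 and 38.4 CPM in S-V. Of the D+V libraries 4 were below all S-V libraries, and D+V 4 lay among them. The log2 fold change was −0.28 (SE 0.11, 95% interval −0.51 to −0.05, unadjusted p 0.0181, adjusted p 0.310, edgeR). With limma voom, which weights libraries by quality, it was −0.35 with an unadjusted p of 0.00308 and an adjusted p of 0.0334. That was the only call among 1760 alternative values for the receptors. Over all 14763 genes, calls in D+V against S-V ran from 0 to 1943 in the settings other than left-out libraries. The share of all genes called by limma voom is not given here. The call therefore cannot be read as particular to Htr1a or to the receptors. The adjusted p of the Htr1a difference ran from 0.0334 to 0.735 over the alternatives, and DESeq2 gave 0.232. Without D+V replicate 3 the value was −0.21, and without D+V replicate 4 it was −0.39.

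The genes around the receptors were read from 2 lists. For synthesis, transport and breakdown of serotonin 13 of 15 genes were tested and 0 passed in any of the 7 comparisons; of 35 signalling partners all were tested and 0 passed in any of them. Markers of raphe cell bodies were low. Tph2, the neuronal synthesis enzyme, ranged from 0.71 to 4.06 CPM, Slc6a4, the serotonin transporter, from 0 to 2.10 CPM, and Fev, the raphe transcription factor, from 0 to 0.44 CPM. The highest Tph2 and Slc6a4 were both in D-V 1. Slc18a2, the vesicular monoamine transporter, averaged 5.21 ± 1.15 CPM for S-V, 5.95 ± 1.64 for D+V and 5.72 ± 0.54 for D-V (SD, n = 5 each), against 7.07 ± 1.51 CPM in Control (SD, n = 3). Maoa and Maob, the monoamine oxidases, averaged 36.2 and 31.9 CPM over the 18 libraries, and Maoa was at 39.3 ± 4.31 CPM in D+V, against 35.1 ± 1.33 CPM in Control.

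In D+V against Control the genes of synthesis, transport and breakdown with the smallest p were Tph1, Gch1 and Maoa. Tph1, the non-neuronal synthesis enzyme, was at 0.18 to 0.39 CPM in D+V, against 0.044, 4.79 and 0.53 CPM in Control, so that the log2 fold change of −2.67 (adjusted p 0.0967, edgeR) had 1 Control library far above the other two. Gch1, which makes the enzyme's cofactor, had a log2 fold change of −0.63 (SE 0.26, adjusted p 0.214) and Maoa 0.16 (SE 0.09, adjusted p 0.357). Among partners Cc2d1a, a repressor of the Htr1a gene, had a log2 fold change of −0.21 (SE 0.06, adjusted p 0.0841), Ric3, a chaperone of the Htr3a channel, 0.22 (SE 0.07, adjusted p 0.0960) and Kcnj9, a potassium channel opened by Gi/o receptors, −0.25 (SE 0.09, adjusted p 0.143). Cc2d1a averaged 44.9 ± 1.15 CPM in D+V (SD, n = 5), against 52.0 ± 2.27 CPM in Control (SD, n = 3), and Ric3 83.1 ± 6.01 and 71.3 ± 2.48 CPM. In D-V against Control the smallest p were those of Tph1 (−2.46), Gch1 (−0.43) and Slc18a2 (−0.31) and, among partners, Gnai1 (0.21), Ric3 (0.14) and Gnaz (0.19). Gnai1 and Gnaz encode Gi-family subunits, and the adjusted p of these 6 genes were 0.710 or above. In S-V against Control they were Slc18a2 (−0.44), Pts (0.24) and Slc22a3 (−0.92) and, among partners, Cc2d1a (−0.20), Gnai3 (0.24) and Gna11 (−0.15), with adjusted p of 0.202 or above.

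After removal of the group means, genes were ranked by how closely they followed each receptor over the 18 libraries, a description that includes any shared tissue content and depth. Htr2c was followed most closely by Esrrb (Pearson r 0.95), Vat1l (0.94) and Mest (0.93). Htr7 was followed by Plagl1 (0.91), Esyt3 (0.91) and Pdk2 (0.90), and Htr3a by Mast1 (0.91), Dis3l2 (0.86) and Lclat1 (0.84). For Htr1a they were Enox1 (0.91), Luc7l (0.88) and Chka (0.88), for Htr4 Erc2 (0.92), Cdk14 (0.89) and Rufy2 (0.89), and for Htr5b Sav1 (0.91), Spry4 (0.81) and Hist2h3c1 (0.72). The nearest genes of Htr2a were Serpini1 (0.85), Rnf170 (0.83) and Reep1 (0.83), those of Htr1b Cds1 (0.86), Arhgef15 (0.86) and Sema3a (0.81), those of Htr5a Pknox1 (0.82), Bend5 (0.81) and Camk1g (0.80) and those of Htr6 included Csrnp2 (0.81) and Clcn7 (0.80). Between the receptors themselves the highest r was 0.57, for Htr3a with Htr7, followed by 0.51 for Htr2c with Htr7. The lowest were −0.70 for Htr3a with Htr5b and −0.62 for Htr5b with Htr7.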

How the data were processed

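RNA of 18 mouse hippocampus samples was sequenced after poly(A) selection and PCR amplification, per the labels' protocols. The deposited values are the authors' estimated counts per gene, of which 7.35% are not whole. The submitters' processing notes name Bowtie2 2.2.8, HISAT2, StringTie 1.3.1 and DESeq2 with no role or order. The genome build, annotation and strand setting of the counting were not given in the sources used. Reads of overlapping or antisense genes may therefore be shared, and only promoter windows carry coordinates.

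Counts were rounded. Genes passing filterByExpr were scaled by TMM. The robust quasi-likelihood test in edgeR 4.0.16 (R 4.3.3) then used 1 model of 4 group means over the 18 libraries, with calls at a Benjamini-Hochberg adjusted p under 0.05. The fit was tested on simulated data. CPM are counts divided by the TMM-scaled library total in M. The common biological coefficient of variation was 15.4%. The labels do not say that samples are separate animals, and p-values reflect the spread of these samples, which may be technical. PCR copies carry no molecular identifiers, so counting errors cover counting only. Lengths came from GENCODE vM21 and sequences from RefSeq. Choroid-rich libraries had over 3 times the median marker sum of 810 CPM.

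All 10 receptors were named, with the 4 other receptor genes, fixed pathway and marker genes, the 3 list members with the smallest p in each comparison described and the 3 genes nearest to each receptor in pattern (prior count 2, mean log2 CPM of at least 1). For Htr6, 1 of these genes is not reported here. Members and lists were chosen with earlier results of these data known, and the position score after its genes' values were seen. Alternatives were other scaling and filters, DESeq2 1.42.0, limma 3.58.1 voom, only the groups compared, replicate blocks, removal of GC and length trends (lengths and GC were found for 99.9% of tested genes), tissue scores as covariates and left-out libraries.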

Additional observations from a re-analysis of the deposited data

Results flagged for a closer look

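Each receptor was examined in each rotated group of 5 libraries for a library far from the others by the Dixon ratio, and 3 of 30 sets held such a library. Chance gives about 1 in 20. The ratio was 0.769 for Htr2c in D+V 2, against a critical value of 0.71. For Htr2a in D-V 3 and Htr5b in D+V 4 it was 0.721 and 0.711, barely over that value. Htr2c was at 95.5 CPM in D+V 2, where the next D+V library had 54.6 CPM. That library is choroid-rich, with 12875 CPM of summed choroid markers, against at most 1951 CPM in the other D+V libraries. Htr2a was at 11.0 CPM in D-V 3, the lowest D-V value, where the next was 13.6 CPM. D-V 3 is the library with the highest choroid marker sum. Htr5b was at 7.80 CPM in D+V 4, where the next was 5.59 CPM. D+V 4 also had the highest Htr2a of the series, 19.6 CPM, and is not choroid-rich.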

How the results depend on the processing

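Over 7 comparisons, 15 named settings and the 18 fits with a library left out, 1760 receptor values were obtained: 1743 were not called, 16 had no adjusted p from DESeq2 and 1 was called. The number of receptors called stayed at 0 in every comparison and setting except D+V against S-V with limma voom, where it was 1 (Htr1a); the cause was not tested. With a library left out it was 0 to 0 throughout. Of 70 receptor and comparison pairs 31 kept their sign in each setting and 39 did not. Htr3a kept its sign against Control in all settings: 0.13 to 0.34 in S-V, 0.17 to 0.47 in D+V and 0.30 to 0.63 in D-V. Leaving out Control 1 or Control 3 moved Htr2c in D-V against Control to 1.05 and 0.39, and leaving out D-V 3 to 0.35.

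The count over all genes was less stable than the receptors' own. In D+V against Control the 139 called genes became 0 to 1260 with a library left out and 0 to 1882 in the other settings. Where the count was 0, it reached at most 318 in S-V against Control, 3 in D-V against Control, 381 for the rotated groups together, 4 in D-V against S-V, 1230 in D-V against D+V and 1943 in D+V against S-V.

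The data gave no sign that the replicate numbers pair the libraries, although this check cannot exclude a pairing. Of 24 pairs with the same number 10 had a correlation of deviations over 0.1 (median 0.02), as had 38 of 96 pairs with different numbers. Of 18 libraries 3 correlated best with their own number. With the replicate number as a block 0 receptors were called in each comparison, and Htr3a in D-V against Control was 0.51 (adjusted p 0.944). Depth limits Htr6 most, at 62 to 114 counts per library.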
